A study of Mus musculus with 12 samples.

Results

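The genes described here are 9 markers of tuft cells, the rare chemosensory cells of the intestinal epithelium: Pou2f3, Gnat3, Trpm5, Il25, Il17rb, Dclk1, Avil, Alox5 and Hpgds. They were taken by name, with every non-control array probe that carries one of these symbols through its RefSeq accession, out of 18539 genes with a symbol on the array. The array held 15 probes for 8 of the 9 genes, 6 of them for Dclk1, 3 for Alox5 and 1 each for the others, and no probe matched Gnat3. A probe entered the tests where the scanner software marked it well above background throughout at least 1 group, which left 5 of the 9 genes (Trpm5, Dclk1, Avil, Alox5 and Hpgds). A gene that passed only through a group in which it is high was thereby already selected to differ.

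Gene expression was measured on 12 one-colour Agilent microarrays, 3 in each of 4 groups of female BALB/c mice aged 5 to 7 weeks by the labels, with distal colorectal epithelium taken on day 100. The AOM/DSS group received the carcinogen azoxymethane (AOM, 12.5 mg/kg intraperitoneally, on day 1) and then 3 rounds of the colitis-inducing polymer dextran sulfate sodium (DSS) in the drinking water from day 5, each of 5 days in a 21 day cycle. The AOM group received 10 mg/kg AOM weekly, 6 times, without DSS, the DSS group the same 3 DSS rounds without AOM, and the labels give no treatment for the control group. AOM, DSS and control tissue was scraped from the colon, whereas the AOM/DSS samples were neoplasms clipped out and stored in another solution, so that AOM/DSS treatment, neoplastic tissue and sampling cannot be told apart. The labels do not state that replicates come from separate animals. The p-values therefore cover only the spread among these arrays, possibly technical, and 3 arrays per group limit the precision.

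Tuft cells sense luminal metabolites through a taste-like cascade, in which a G protein (gustducin, with the subunit Gnat3) acts through phospholipase C and intracellular calcium to open the cation channel Trpm5. They release interleukin 25 (Il25), which acts on group 2 innate lymphoid cells through a receptor that contains Il17rb, and those cells answer with interleukin 13, which raises the output of tuft and goblet cells. The transcription factor Pou2f3 is required for the lineage, Dclk1 and Avil are cytoskeletal markers of it, and Alox5 and Hpgds make leukotrienes and prostaglandin D2, mediators that immune cells also make.

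Levels are log2 processed intensity relative to the 75th percentile of the same array, and differences are on that log2 scale. That percentile was an intensity of 1115 to 1185 in the neoplasms and 393 to 694 elsewhere. The share of probes well above background was 62.6 to 66.2% in the neoplasms and 52.0 to 59.3% elsewhere. Probes at background can read lower in the neoplasms on this scale. Bmx, not well above background on any array, ran from -6.05 to -5.70 in control and from -7.36 to -6.92 in AOM/DSS. Sucnr1 and Pou2f3 did likewise, while Gnb3 and Il17rb, also at background throughout, overlapped control. The 7 epithelial markers (Epcam, Cdh1, keratins and Vil1) were measured in every group, with a mean level of 6.68 to 7.56 in controls and 5.61 to 5.95 in AOM/DSS. Of the 7, 5 were lower in AOM/DSS than in control (1 with slide as a block), at a median of -1.07, beside 17.5% of all genes. Against AOM 4 were lower and against DSS 5 (3 and 1 with slide as a block), beside 17.7% and 18.2% of all genes. The part of this epithelial difference in the levels of the tuft cell genes was not tested. The slides did not hold the groups in balance: AOM and AOM/DSS shared a slide for their replicates 1 and 2, the DSS arrays shared theirs with AOM replicate 3, and the controls theirs with AOM/DSS replicate 3. A fit with slide as a block is therefore given beside the calls it ends. In that fit AOM/DSS and control are compared through AOM/DSS replicate 3 alone. DSS is compared with every other group through AOM replicate 3 alone, so a call kept there rests on that array. Exocrine pancreas markers, which are foreign to the colon, had mean levels of -0.79, 1.73 and 6.17 on the control arrays, -2.86 to 3.47 in DSS, -3.18 to -2.70 in AOM and -3.44 to -2.91 in AOM/DSS. Of the 9 pancreas markers tested, 6 were lower in AOM/DSS and 3 in AOM than in control (1 and 0 with slide as a block). Of all genes 17.5% and 17.6% were lower there. The part of these markers in the comparisons with control was not tested. Fibroblast markers had mean levels from -0.34 to 3.07 on the control arrays and from 2.37 to 3.21 elsewhere. Of the 8 tested, 5 were higher in AOM/DSS and 4 in AOM than in control (0 and 0 with slide as a block). Of all genes 17.2% and 14.8% were higher there. The part of fibroblasts in the comparisons with control was not tested either. These are bulk samples, in which fewer tuft cells and less RNA per tuft cell cannot be told apart.

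The members moved in different directions. In the AOM/DSS neoplasms Trpm5 was not well above background, Avil stood 12.6-fold above control, and Hpgds did not differ from control beyond the spread between arrays. Alox5 stood 2.14-fold below control on the scaled values, a call that ended with slide as a block. In AOM epithelium Trpm5 and Hpgds were lower than in controls and Avil was higher. Among the 5 tested members, 3 were called between AOM/DSS and control (1 higher, 2 lower), where 34.7% of all 18959 genes tested were called (17.2% higher, 17.5% lower). The count was likewise 3 of 5 between AOM and control (1 higher, 2 lower), against 32.4% of all genes (14.8% higher, 17.6% lower). Between AOM/DSS and AOM 4 of 5 were called (2 higher, 2 lower), against 37.1% (19.5% higher, 17.7% lower), and between AOM/DSS and DSS 3 of 5 (2 higher, 1 lower), against 35.9% (17.6% higher, 18.2% lower). With so few members these shares say little against the background. No member was called between DSS and control, where limma called 0.327% of all genes and 1 member (Hpgds) had an unadjusted p under 0.05, as did 21.1% of all genes. None was called between DSS and AOM, where 0.0105% of all genes were called and 3 members (Alox5, Avil and Trpm5) had an unadjusted p under 0.05, as did 14.8% of all genes. The moderated F test over the 4 groups called Trpm5, Avil, Alox5 and Hpgds, with 52.6% of all genes called. Calls are at a Benjamini-Hochberg adjusted p under 0.05 from limma, over all genes tested.

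**Figure D1:**
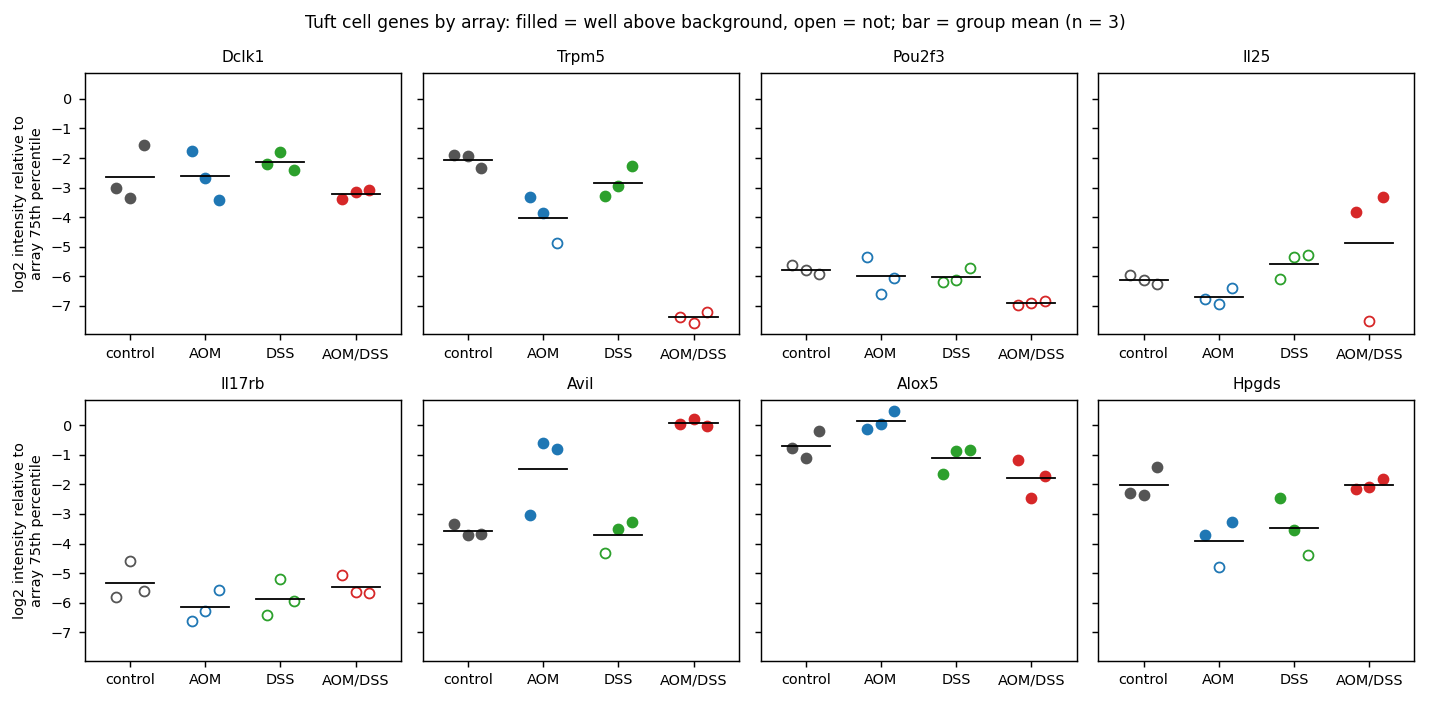
Level of the 8 tuft cell genes with a probe on each of the 12 arrays, as log2 intensity relative to the array's 75th percentile, by group; filled points were well above background, open points were not, and bars are group means (n = 3). Trpm5 is open on all 3 AOM/DSS arrays near -7.4, Avil lies near 0 there, Pou2f3 and Il17rb are open throughout, and Il25 is filled on 2 AOM/DSS arrays.

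Trpm5, the calcium-activated cation channel that depolarises the tuft cell at the end of the taste cascade, was measured in control and was not well above background on any AOM/DSS array. The sequence ahead of its start is shown for that reason: it is the 250 bases before the RefSeq gene start on the minus strand of GRCm38.p6 (chr7:143094643-143094892), with the gene itself at chr7:143071529-143094642. It was searched on both strands for the octamer ATGCAAAT (reverse ATTTGCAT) and for its first 7 bases ATGCAAA (reverse TTTGCAT), which overlap it. The octamer is the textbook recognition sequence of POU factors, the family of Pou2f3. Matches would be in capitals, and there is none in this window. Of 32851 such windows in the RefSeq table, 1.60% hold the octamer and 4.12% the 7 bases.
Trpm5: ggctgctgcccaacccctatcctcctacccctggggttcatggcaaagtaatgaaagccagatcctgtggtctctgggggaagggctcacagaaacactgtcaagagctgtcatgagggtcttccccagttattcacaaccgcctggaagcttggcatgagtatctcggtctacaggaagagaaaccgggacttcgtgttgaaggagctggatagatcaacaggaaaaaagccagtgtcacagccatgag

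The Trpm5 level was -1.89, -1.92 and -2.35 in the 3 control arrays and -3.29, -2.95 and -2.26 in the DSS arrays. It was -3.32, -3.87 and -4.86 in the AOM arrays, the last not well above background, and -7.37, -7.56 and -7.19 in the AOM/DSS arrays, none of them well above background. Every AOM/DSS array lay below every other array, and the AOM arrays lay below all controls, while DSS and control overlapped. The fitted difference between AOM/DSS and control was -5.32 ± 0.38 (SE, n = 3 against 3; limma adjusted p = 1.9e-05). Because the gene was not measured above background in the neoplasms, the fold is a bound: Trpm5 was at least 8.08-fold lower than in control, at least 4.70-fold lower than in DSS (difference -4.54, adjusted p = 8.5e-05) and at least 2.07-fold lower than in AOM (difference -3.36, adjusted p = 0.00066). For each such bound the neoplasm arrays were set at the dimmest signal marked well above background there. On the slide that held AOM/DSS replicate 3 with the controls the difference was -5.14 (adjusted p = 0.0007 with slide as a block). The loss was called without any 1 array in turn for all 3 of these comparisons.

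AOM epithelium also had less Trpm5 than control, by 1.96 ± 0.38 on the log2 scale (fitted difference -1.96, 3.90-fold, adjusted p = 0.0083). That call ended with slide as a block (-1.27, adjusted p = 0.30), where AOM and control are joined only through the AOM/DSS arrays, and with normexp background correction (-1.52, adjusted p = 0.060). With normexp the difference between AOM/DSS and AOM was -1.22 (adjusted p = 0.14). Ordered by level, control was above DSS, DSS above AOM and AOM above AOM/DSS. The neighbours control and DSS did not pass the test (-0.78, adjusted p = 0.26) and changed order with slide as a block (0.75), nor did DSS and AOM (1.18, adjusted p = 0.23).

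Pou2f3, which specifies the lineage, lay at chr9:43123927-43205755 and was not well above background on any of the 12 arrays. Its level ran from -6.97 to -6.83 in AOM/DSS and from -5.92 to -5.62 in control, at processed intensities of 6.97 to 11.3 over all arrays, so no fold is given. Without the filter on dim probes the fit gave -1.12 (adjusted p = 0.0099) between those groups, a difference between values that were all at background on arrays whose 75th percentile differed.

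The interleukin 25 arm was near background as well. Il25, the cytokine by which tuft cells alert innate lymphoid cells, was well above background on AOM/DSS replicates 1 and 3 only, at levels of -3.84 and -3.30 (intensities of 79.1 and 120.0). On AOM/DSS replicate 2 it was -7.52, and on the other 9 arrays, from -6.94 to -5.29, it was not well above background either. The neoplasms thus differed among themselves more than the other groups did, and without the filter the difference from control was 1.24 ± 0.85 (adjusted p = 0.27). Il17rb, the receptor subunit for interleukin 25, was not well above background on any array, with levels from -6.61 to -4.59.

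Dclk1, a microtubule-associated kinase used as a tuft cell marker and also expressed in neurons, gave a different answer by probe. The gene lies at chr3:55242303-55539068 on GRCm38.p6. Its brightest tested probe, which stands for the gene in the fit (A_52_P217807), was -3.02, -3.34 and -1.57 in control, -1.76, -2.67 and -3.41 in AOM, -2.18, -1.81 and -2.39 in DSS, and -3.39, -3.14 and -3.09 in AOM/DSS. The groups overlapped except AOM/DSS and DSS, and no difference passed the test: AOM/DSS minus control was -0.56 ± 0.48 (adjusted p = 0.40) and AOM/DSS minus DSS was -1.07 (adjusted p = 0.10). With normexp, where dim genes can read lower in the neoplasms, the former passed (-1.62, adjusted p = 0.039), and without control replicate 3 it was -0.024. The latter passed without control replicate 3 (-1.07, adjusted p = 0.045).

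Another probe of the gene, A_52_P563818, was -1.76, -2.24 and -1.56 in control and -2.03, -1.63 and -1.98 in DSS. It was -2.24, -2.58 and -3.59 in AOM and -4.67, -5.13 and -5.64 in AOM/DSS, well above background there on 1 of 3 arrays. On this probe every neoplasm lay below every other array. In a fit over all 25469 probes it fell by 3.29 ± 0.37 between control and AOM/DSS (adjusted p = 0.00015), where 34.6% of all probes were called. The fall was -3.27 against DSS (adjusted p = 0.00032, 35.1% of probes called) and -2.34 against AOM (adjusted p = 0.0030, 36% called). All 3 were called without any 1 array and with slide as a block (-3.79, -4.20 and -2.49). In the block fit the first rests on AOM/DSS replicate 3 alone, and the second reaches DSS through AOM replicate 3 alone. The difference from AOM was -1.25 with normexp (adjusted p = 0.11).

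The probe A_51_P193036 went the same way at a smaller size, from -2.03, -2.50 and -1.73 in control to -4.22, -4.12 and -4.33 in AOM/DSS (-2.14 ± 0.32, adjusted p = 0.00079). It was also lower in AOM than in control (-1.16, adjusted p = 0.022, where 32.3% of probes were called), a call that ended with slide as a block (adjusted p = 0.33) and with normexp (-1.32, adjusted p = 0.063). The probe A_51_P270355 read -5.48, -4.87 and -2.70 in the neoplasms against -2.73, -2.77 and -2.90 in control (-1.55, adjusted p = 0.077). With slide as a block that difference was 0.10. A_52_P26991 read -3.37, -2.88 and -2.92 against -4.65, -4.02 and -1.68 (0.39, adjusted p = 0.68), and the sixth, A_52_P21628, was not well above background on any array. The 5 tested probes thus ran from a fall of 3.29 to a difference of 0.39 that did not pass, and their mean gave -1.43 between AOM/DSS and control (adjusted p = 0.016). Which transcripts of Dclk1 each probe matches was not tested, because the probe sequences are not used here.

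**Figure D2:**
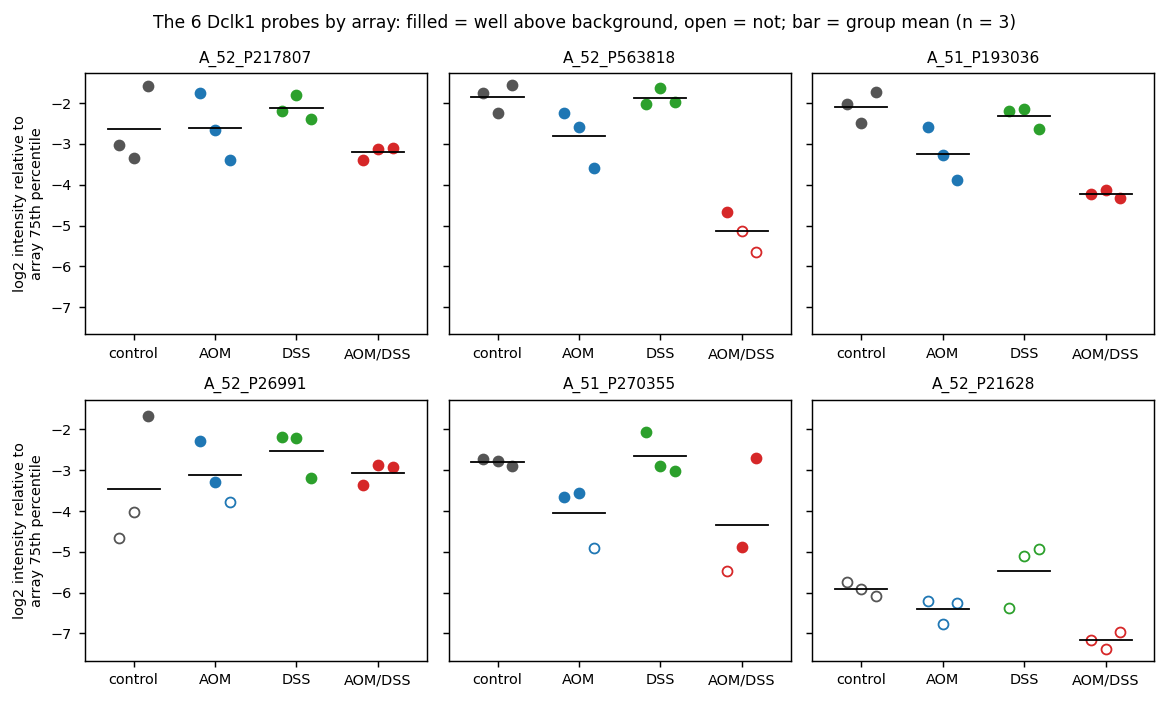
Level of each of the 6 Dclk1 probes on the 12 arrays (log2 intensity relative to the array's 75th percentile) by group; filled points were well above background, open points were not, and bars are group means (n = 3). A_52_P563818 and A_51_P193036 are lowest in AOM/DSS, whereas A_52_P217807 and A_52_P26991 overlap control there.

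Avil encodes advillin, an actin-bundling protein of the gelsolin and villin family found in tuft cells and in sensory neurons. The gene lies at chr10:127000065-127020994. Its RefSeq window (chr10:127000459-127000708, plus strand, GRCm38.p6), which lies inside the gene's annotated span ahead of an internal start, holds the 7 bases of the octamer 2 times, starting 115 and 15 bases before that start. Both sites are shown with up to 10 bases on each side because 2 of the tested members, Avil and Hpgds, have such a match; the capitals mark the match.
Avil site 1, chr10:127000584-127000610: ttttcgctgtTTTGCATaggagcagat
Avil site 2, chr10:127000684-127000708: tgtggttatgATGCAAAcacaagca

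Avil was the member that rose in the neoplasms. Its level was -3.32, -3.73 and -3.67 in control and -4.31, -3.52 and -3.29 in DSS, the first of these not well above background. It was -3.04, -0.59 and -0.81 in AOM and 0.05, 0.22 and -0.03 in AOM/DSS, which in processed intensity is 36.4 to 53.3 in control and 1163 to 1303 in AOM/DSS. All AOM/DSS arrays lay above all others, AOM replicates 2 and 3 lay well above control, and AOM replicate 1 lay just above the highest control. AOM/DSS exceeded control by 3.65 ± 0.54 (12.6-fold, adjusted p = 0.00078) and DSS by 3.79 ± 0.54 (13.8-fold, adjusted p = 0.0011). The rise over control held on the shared slide (3.54, adjusted p = 0.026 with slide as a block) and without any 1 array, but was 1.58 with normexp (adjusted p = 0.11). The rise over DSS missed the threshold with slide as a block (4.85, adjusted p = 0.052) and with normexp (1.93, adjusted p = 0.077).

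In AOM epithelium Avil was 2.09 ± 0.54 above control (4.27-fold, adjusted p = 0.019). This ended with slide as a block (1.59, adjusted p = 0.40), with normexp (0.38, adjusted p = 0.67), and without AOM replicate 2 (1.65, adjusted p = 0.072), AOM replicate 3 (1.76, adjusted p = 0.061) or control replicate 2 (2.02, adjusted p = 0.057), and was 2.87 without AOM replicate 1. AOM/DSS stood 1.56 above AOM (adjusted p = 0.044), a call that remained without only 3 of the 12 arrays, with 0.78 (adjusted p = 0.084) without AOM replicate 1 and 1.95 (adjusted p = 0.074) with slide as a block. It also ended with median scaling (1.24, adjusted p = 0.11), quantile normalization and the authors' matrix (1.54 in both, adjusted p = 0.063), no filter (adjusted p = 0.057) and normexp (1.20, adjusted p = 0.26). Control and DSS were neighbours that did not differ beyond their spread (-0.14, adjusted p = 0.90). DSS minus AOM was -2.23 (adjusted p = 0.16), and -3.01 without AOM replicate 1 (adjusted p = 0.0010). Of 8 enteric neuron and glia markers on the array, 3 were bright enough to be tested. All 3 were lower in AOM/DSS than in control (0 with slide as a block), where 17.5% of all genes were lower. Their mean levels were -3.91 to -3.61 against -2.60 to -2.00, and the part of those cells in the Avil level was not tested.

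Alox5, the lipoxygenase that begins leukotriene synthesis in tuft cells and in myeloid and mast cells, lies at chr6:116410071-116461178. The probe in the fit was -0.77, -1.10 and -0.20 in control, -1.63, -0.88 and -0.85 in DSS, -0.11, 0.03 and 0.47 in AOM, and -1.18, -2.46 and -1.72 in AOM/DSS. The AOM arrays lay above all others, and the AOM/DSS arrays lay below all AOM and control arrays and overlapped DSS. AOM/DSS was below AOM by 1.91 ± 0.37 (difference -1.91, 3.77-fold, adjusted p = 0.0063). That difference held with slide as a block (-1.78, adjusted p = 0.045) and without any 1 array. All 3 Alox5 probes gave it, from -1.95 to -1.87.

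Against control, Alox5 was lower in AOM/DSS by 1.10 ± 0.37 (difference -1.10, 2.14-fold, adjusted p = 0.041). Its other probes overlapped control there, A_52_P214126 with an adjusted p of 0.0495 and A_52_P214134 with 0.056. The call ended with slide as a block (-1.03, adjusted p = 0.26) and without AOM replicate 2, AOM/DSS replicate 2, AOM/DSS replicate 3, control replicate 1 or control replicate 3 (differences from -1.13 to -0.76). The higher level in AOM than in control did not pass (0.82, adjusted p = 0.11). Neither did AOM/DSS against DSS (-0.67, adjusted p = 0.17), DSS against control (-0.43, adjusted p = 0.50) or DSS against AOM (-1.25, adjusted p = 0.20). Mast cell, macrophage and neutrophil markers were called in some of the same comparisons, not always in the direction of Alox5. Of 7 mast cell markers, 3 were higher in AOM than in control and 2 lower in AOM/DSS than in AOM, with mean levels of 1.5 to 2.32 in AOM, -0.50 to 0.89 in control and -0.37 to 1.67 in AOM/DSS. All genes gave 14.8% higher and 17.7% lower in these comparisons, and slide as a block left no call among the 7. Of 7 macrophage markers, 5 were higher in AOM and 4 in AOM/DSS than in control, beside 14.8% and 17.2% of all genes. With slide as a block none was higher in either. Between AOM/DSS and AOM no macrophage marker was called, beside 37.1% of all genes. All 6 neutrophil markers tested were higher in AOM and in AOM/DSS than in control (0 and 5 with slide as a block), beside 14.8% and 17.2% of all genes. Of these 6, 2 were higher in AOM/DSS than in AOM (0 with slide as a block), beside 19.5% of all genes. The part of those cells in the Alox5 levels was not tested.

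Hpgds, the haematopoietic prostaglandin D synthase of tuft cells, mast cells and some lymphocytes, lies at chr6:65117293-65144981. Its RefSeq window on the minus strand (chr6:65144731-65144980, GRCm38.p6), again inside the annotated span ahead of an internal start, holds the whole octamer, 174 bases before that start, as shown with 10 bases on each side. These were the only matches among the 8 windows of the 7 members in the table.
Hpgds site, chr6:65144887-65144914: tttactctttATGCAAATacgttggact

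The Hpgds level was -2.30, -2.37 and -1.42 in control and -2.15, -2.09 and -1.83 in AOM/DSS. It was -3.72, -4.79 and -3.28 in AOM and -2.46, -3.56 and -4.40 in DSS, with AOM replicate 2 and DSS replicate 3 not well above background. The AOM arrays lay below all control and all AOM/DSS arrays, which overlapped each other, and the DSS arrays lay below both. AOM was below control by 1.90 ± 0.51 (difference -1.90, 3.74-fold, adjusted p = 0.021), and AOM/DSS exceeded AOM by 1.91 ± 0.51 (3.75-fold, adjusted p = 0.017). With slide as a block these were -1.94 (adjusted p = 0.32) and 2.14 (adjusted p = 0.053). Without AOM replicate 2 they were -1.47 (adjusted p = 0.076) and 1.48 (adjusted p = 0.060), without control replicate 1 the former was -2.04 (adjusted p = 0.051), and with normexp the latter was 0.81 (adjusted p = 0.28).

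AOM/DSS exceeded DSS in Hpgds by 1.45 (adjusted p = 0.046), a call that remained without only 4 of the 12 arrays (AOM replicate 2, AOM replicate 3, DSS replicate 1 or control replicate 3). It ended with slide as a block (2.33, adjusted p = 0.18), with median scaling (1.22, adjusted p = 0.060) and with quantile normalization or the authors' matrix (1.24, adjusted p = 0.055), and turned direction with normexp (-0.08, adjusted p = 0.91). Between AOM/DSS and control the difference was 0.01 ± 0.51 (adjusted p = 0.99), with the sign changing under other scalings. DSS minus control was -1.44 (adjusted p = 0.17), and -1.95 without DSS replicate 1 (adjusted p = 0.023). Alox5 and Hpgds, both enzymes of lipid mediators, thus differed in opposite directions between AOM/DSS and AOM.

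**Figure D3:**
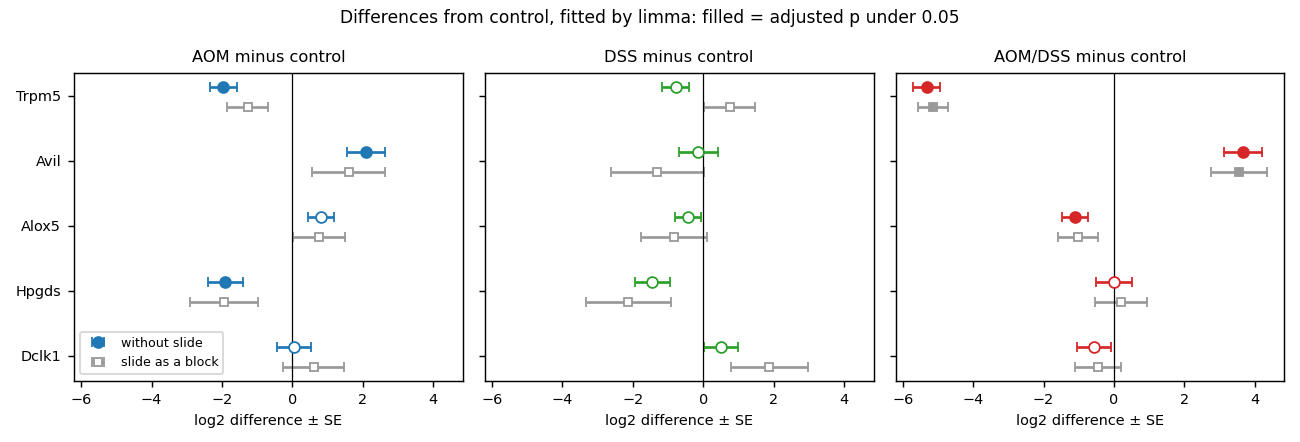
Fitted log2 difference from control ± SE for the 5 tested members in AOM, DSS and AOM/DSS (n = 3 arrays per group); circles are the fit without slide, grey squares the fit with slide as a block, and filled symbols have an adjusted p under 0.05. Trpm5 and Avil in AOM/DSS are filled in both fits, and no AOM or DSS square is filled.

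The other genes of the tuft cell programme came from a list of 21, of which 18 had a probe (Irag2, Sh2d6 and Ffar3 had none) and 13 were tested. Gnb3, Tas1r1, Bmx, Hmx2 and Sucnr1 were too dim to be tested. Between AOM/DSS and control 9 of the 13 were lower, 1 higher and 3 did not pass, with a median difference of -1.67, beside 17.5% lower and 17.2% higher of all genes and a median of 0.03 over all genes. That median is the difference of Gng13, described below, which was not well above background on AOM/DSS replicates 1 and 3. The 4 genes below background on every neoplasm array stay below that median at their bounds, so setting them there could not move it. Gng13 itself was not set at a bound, so the size of the median is uncertain. With slide as a block 3 were lower and none higher, at a median of -1.71. With normexp, where dim genes can read lower in the neoplasms as they can in the main scaling, 8 were lower and none higher. Leaving out 1 array gave 7 to 9 lower and 0 to 1 higher, with none higher without AOM/DSS replicate 3, control replicate 1 or control replicate 2. The 3 lower genes of the slide fit were Rgs13, Sh2d7 and Gfi1b. Other filters changed the genes tested and the median. With no filter it was -1.34 over 18 genes (12 lower, 1 higher), and with a filter on all 12 arrays -0.82 over 5 genes (3 lower, 1 higher).

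In the taste cascade of that list, Rgs13, a regulator of G protein signalling, was -1.78, -2.71 and -0.76 in control and -5.46, -7.35 and -6.97 in AOM/DSS. It was not well above background on any neoplasm and at least 9.94-fold lower than in control (adjusted p = 0.0018). Gng13, the gamma subunit that partners gustducin, differed by -1.67 ± 0.50 (adjusted p = 0.025). It was not well above background on AOM/DSS replicates 1 and 3 or on control replicate 1, so the size of its difference is uncertain. Itpr2, a calcium release channel, differed by -1.41 ± 0.38 (adjusted p = 0.015), and the taste receptor subunit Tas1r3 by -0.82 ± 0.20 (adjusted p = 0.010). The Gng13 call ended without AOM/DSS replicate 1, AOM/DSS replicate 3, control replicate 2 or control replicate 3 (-1.64 to -1.36), and the Itpr2 call without AOM/DSS replicate 1 (-1.03, adjusted p = 0.058). Plcb2, the phospholipase of the cascade, did not pass (0.22, adjusted p = 0.68). The calcium channel and the receptor subunit were thus lower along with Trpm5. The gustducin partner was lower at values partly at background, and the phospholipase did not pass the test.

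Among the signalling and transcription factor genes, Sh2d7, an adaptor, was -2.54, -2.57 and -3.16 in control and -6.25, -7.39 and -7.00 in AOM/DSS, at least 4.96-fold lower (adjusted p = 0.00011). Gfi1b, a transcriptional repressor of tuft cells that also acts in blood cell precursors, was at least 4.24-fold lower (-2.96 ± 0.43, adjusted p = 0.00068). Siglecf, a lectin of tuft cells and eosinophils, was at least 3.58-fold lower (adjusted p = 0.0013), and Hmx3, a homeobox factor, differed by -2.99 ± 0.53 (adjusted p = 0.0021). Hmx3 was not well above background on AOM/DSS replicates 1 and 2, so the size of its difference is uncertain too. Spib, a transcription factor of tuft cells, B cells and the epithelium over lymphoid follicles, was 1.53, 0.59 and 1.92 in control and -1.93, -2.75 and -1.66 in AOM/DSS (-3.46 ± 0.82, adjusted p = 0.0087). Of 6 B and plasma cell markers, 3 were lower in the same comparison, beside 17.5% of all genes. Their mean levels were 0.16 to 2.43 in control and -2.06 to -0.20 in AOM/DSS. None of the 6 was called with slide as a block, and their part in the Spib level was not tested.

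The gene of the list that was higher in AOM/DSS than in control, Cd300lf (1.37, adjusted p = 0.018), is also expressed by myeloid cells. It lost its call without AOM/DSS replicate 3, control replicate 1 or control replicate 2 (1.02 to 1.29). All 6 neutrophil markers tested and 4 of 7 macrophage markers were higher in that comparison (5 and 0 with slide as a block), beside 17.2% of all genes. The mean level of the neutrophil markers was 0.62 to 1.56 in AOM/DSS and -4.49 to -3.47 in control, and their part in Cd300lf was not tested. The 3 genes that did not pass were Plcb2, Plcg2 (0.23, adjusted p = 0.76) and Chat, the acetylcholine-synthesising enzyme (-0.73, adjusted p = 0.30).

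Against AOM, 8 of the 13 other tuft cell genes were lower in AOM/DSS and none higher, at a median of -1.54 fitted and -1.17 with genes at their bound, where 17.7% of all genes were lower. With normexp 1 of the 13 was lower in that comparison, and with slide as a block 6 were. Leaving out 1 array gave 5 to 8, the lowest without AOM/DSS replicate 1. Against DSS, 9 were lower and none higher, at a median of -1.99, where 18.2% of all genes were lower; normexp gave 5 and the slide block 3. The comparisons of AOM/DSS share its 3 arrays. Between AOM and control 2 of the 13 were higher (Plcb2 and Cd300lf) and 2 lower (Tas1r3 and Sh2d7), where 14.8% and 17.6% of all genes were, and none was called with slide as a block or with normexp. With median scaling, quantile normalization, the authors' matrix or the replicate block 2 were higher and none lower. No higher gene was called without AOM replicate 1, and no gene at all without AOM replicate 2, control replicate 1 or control replicate 2. No lower gene was called without AOM replicate 3, AOM/DSS replicate 2 or AOM/DSS replicate 3, and leaving out control replicate 3 gave 3 in each direction. In DSS none of the 13 was called against control, with 3 at an unadjusted p under 0.05 in limma, beside 0.327% of all genes called and 21.1% at an unadjusted p under 0.05.

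**Figure D4:**
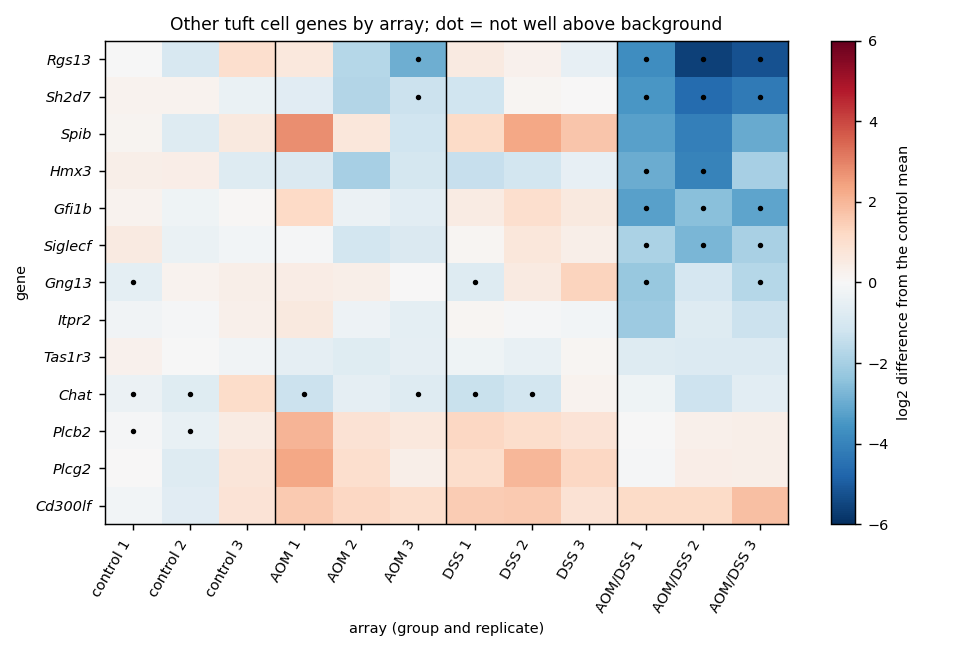
Difference of each of the 13 other tuft cell genes from its control mean on each of the 12 arrays (log2, colour scale from -6 to 6, red higher and blue lower than control); a dot marks an array on which the probe was not well above background. Rgs13, Sh2d7, Gfi1b and Siglecf are dotted on all 3 AOM/DSS arrays, and Cd300lf is red on every AOM, DSS and AOM/DSS array.

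Around Alox5 and Hpgds, 10 of 11 eicosanoid genes were tested. Between AOM/DSS and control 3 were higher and 3 lower, beside 17.2% and 17.5% of all genes. The higher were Ptgs2, the inducible cyclooxygenase (2.98 ± 0.89, adjusted p = 0.025), Ptges, which makes prostaglandin E2 (1.58, adjusted p = 0.019), and Lta4h, which makes leukotriene B4 (0.89, adjusted p = 0.012). The lower were Hpgd, which degrades prostaglandins (-4.22 ± 0.54, adjusted p = 0.00032), Ltc4s, which makes leukotriene C4 (-1.69 ± 0.33, adjusted p = 0.0032), and Ptgdr2, a receptor for prostaglandin D2 (-1.35, adjusted p = 0.011). With slide as a block Hpgd and Ltc4s were still called and the other 4 were not. Ptgs2 also lost its call without AOM/DSS replicate 1 or 3 or control replicate 1 or 2 (2.51 to 3.03), Ptges without AOM/DSS replicate 3 or control replicate 1 or 2 (1.11 to 1.53), and Lta4h without control replicate 1 (0.74). Ltc4s was -1.87, -2.21 and -1.77 in control and -3.87, -3.55 and -3.48 in AOM/DSS, and so was lower beside Alox5, which acts ahead of it. In AOM 4 were higher than control (Ptgs1, Alox5ap, Lta4h and Ptges) and Hpgd lower, beside 14.8% and 17.6% of all genes, and none of them was called with slide as a block.

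In the type 2 axis that interleukin 25 feeds, 9 of 13 genes were tested. Between AOM/DSS and control 2 were higher and 4 lower (1 and 3 with slide as a block), beside 17.2% and 17.5% of all genes. Il4ra, Il17ra and Gata3 did not pass. Il13 itself was lower in AOM/DSS than in control (-1.09 ± 0.34, adjusted p = 0.030), a call that ended without any 1 of the AOM/DSS or control arrays (-1.15 to -1.01) and with slide as a block (-1.05, adjusted p = 0.16). It was near background, well above it on all 3 AOM/DSS arrays (-4.71, -4.86 and -4.73) but not on control replicate 1 (-3.81). The size of the Il13 difference is therefore uncertain, since dim probes can read lower in the neoplasms. Goblet cell products that interleukin 13 can induce were much lower: Retnlb by -8.42 ± 0.96 (adjusted p = 0.00018) and Clca1 by -6.21 ± 1.26 (adjusted p = 0.0041). A part of Il13 in these levels was not tested. Clca1 was 9.46, 9.37 and 8.89 in control and 6.14, 3.66 and -0.73 in AOM/DSS, so the neoplasms differed widely. Il13ra1, a receptor subunit, was lower too (-1.83, adjusted p = 0.00066), while the alarmin Il33 (3.64 ± 0.86, adjusted p = 0.0087) and its receptor Il1rl1 (5.54 ± 1.13, adjusted p = 0.0041) were higher. The call on Il33 ended with slide as a block (4.35, adjusted p = 0.056). Il4, Il5, Il9 and Tslp were too dim to be tested.

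Markers of another secretory lineage were lower in the neoplasms as well. All 6 enteroendocrine genes tested, among them Chga, Pyy and Gcg, were lower in AOM/DSS than in control, where 17.5% of all genes were lower. Their mean level was -2.63 to -0.27 against 3.25 to 3.59, and 5 of them were lower with slide as a block. In AOM and DSS none of the 6 was called against control, beside 32.4% and 0.327% of all genes. Their mean levels there were 3.16 to 3.96 and 3.66 to 4.34. The difference between Trpm5 and these genes in AOM was not itself tested.

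The genes with the pattern most like each member were ranked by Pearson r over the 12 arrays among 13474 named genes, as a description that shares the arrays, their scaling and the group differences. Avil was most like Dkk2 (r = 0.992), Wnt6 (r = 0.992) and Prox1 (r = 0.991), with r from 0.942 to 0.963 after group means were removed. The ranking was over all 12 arrays and was not repeated within groups, where Avil varied most in AOM (SD 1.35, against 0.13 to 0.54 elsewhere). Trpm5 was most like Frat2 (r = 0.991), Peg12 (r = 0.987) and Ugt1a6b (r = 0.986), with r from 0.764 to 0.801 after group means were removed. For Dclk1, by its probe in the fit only, these were Ahrr, Rnase6 and Cxcl13 (r from 0.934 to 0.940). For Hpgds they were 5530601H04Rik, Zfp52 and Mrpl47 (0.931 to 0.950), and for Alox5 Cd209f, Ccdc166 and Fam149a (0.849 to 0.886). After group means were removed r was 0.926 to 0.942 for Dclk1, 0.767 to 0.872 for Hpgds and 0.489 to 0.819 for Alox5.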

How the data were processed

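Each of the 12 arrays has a deposited scanner table of one-colour intensity. Its software was Agilent Feature Extraction, given as 10.7.3.1 in the file headers and as 10.7 in the submitters' processing notes, and the processed signal is background-corrected and not normalized between arrays. The deposited series matrix holds the authors' log2 values, quantile normalized (sorted columns equal within 0.000945, column median 6.174), and served as an alternative. The log2 processed intensity was scaled by subtracting the 75th percentile of the array. Probes had to be well above background throughout at least 1 group, and a gene was represented by the brightest of them (18960 genes, 25469 probes). Group means were fitted with limma 3.58.1 in R 4.3.3 (lmFit, eBayes, 8 residual and 2.63 prior degrees of freedom), with Benjamini-Hochberg adjustment over all genes. The script was tested on simulated data. Named genes are all 9 members, up to 4 called genes with the largest change per list, and 3 genes most like each member; other genes of the lists were named after their values were seen. Members and lists were chosen with earlier results of these data known. Same-numbered replicates correlated at -0.27 to 0.245 and were not treated as pairs. Alternatives were normexp (offset 50), median and quantile scaling, the authors' matrix, other filters, other probe rules, slide and replicate blocks, and each array left out. The normexp setting added 50 to each intensity before scaling to the 75th percentile. Differences of dim genes were thereby compressed. As in the main scaling, genes at background can read lower in the neoplasms, whose 75th percentile was higher. An item of the lists is not reported here.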

Additional observations from a re-analysis of the deposited data

How the results depend on the processing

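The number of members called in each comparison, though not always each call, was the same or within 1.5 times under the authors' matrix values, median scaling, quantile normalization, no filter, both other probe rules and the replicate block. With normexp it was 1 in AOM against control, 1 in AOM/DSS against AOM, 1 in AOM/DSS against DSS and 2 for any group difference. A filter on all 12 arrays left 2 members to test (Dclk1 and Alox5), so fewer could be called: 1 in AOM/DSS against control, 0 in AOM against control, 1 in AOM/DSS against AOM, 0 in AOM/DSS against DSS and 1 for any group difference. With slide as a block the counts were 0 in AOM against control, 2 in AOM/DSS against AOM and 1 in AOM/DSS against DSS. Leaving out 1 array gave 1 to 3 members in AOM against control, 3 to 4 in AOM/DSS against AOM, 2 to 4 in AOM/DSS against DSS, 2 to 3 in AOM/DSS against control, and 0 to 1 in both DSS against control (1 without DSS replicate 1) and DSS against AOM (1 without AOM replicate 1). The replicate block took no count past 1.5 times and ended 1 member call (Hpgds in AOM/DSS against DSS, 1.45, adjusted p = 0.054); same-numbered arrays share only a number here.

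Of differences that changed sign, only 1 had been called: Hpgds in AOM/DSS against DSS was -0.082 with normexp. The others had not passed the test. Hpgds in AOM/DSS against control was -0.81 with normexp, -0.15 with median scaling, -0.12 with quantile normalization and -0.12 with the authors' matrix, and -0.16 to 0.31 with 1 array left out (negative without AOM/DSS replicate 3, control replicate 1 or control replicate 2). Hpgds in DSS against AOM was -0.19 with slide as a block and -0.050 to 0.92 with 1 array left out (negative without DSS replicate 1). Dclk1 in AOM against control was -1.02 with normexp, -0.60 as the mean of its probes and -0.39 to 0.57 with 1 array left out (negative without AOM replicate 1, control replicate 1 or control replicate 2), and in DSS against control it was -0.28 with normexp. Trpm5 in DSS against control was 0.75 with slide as a block, and Avil there was -0.35 to 0.17 with 1 array left out (positive without DSS replicate 1). The cause was not tested. Signal over background limits Pou2f3, Il17rb and Il25, and Trpm5 in the neoplasms, to bounds or to no fold.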
